A study of Mus musculus with 6 samples.

Results

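The genes described here encode parts of G protein signalling, and they were taken by symbol from a deposited table of mouse hippocampal RNA sequencing. Symbols that start with Gpr and a digit, Adgr, Rgs and a digit, Gna, Gnb and a digit, Gng and a digit, Adcy, or Pde and a digit gave 39 of the 3733 genes in the table. They comprise 16 Gpr receptors, 5 adhesion receptors, 2 alpha subunits, 1 beta subunit, 6 regulators of G protein signalling (RGS proteins), 7 cyclic nucleotide phosphodiesterases, and 2 proteins that bind RGS proteins and carry their symbol (Rgs7bp and Rgs9bp). The prefixes for gamma subunits and adenylyl cyclases matched 0 genes of the table. Total RNA of hippocampus was sequenced in 3 groups of 2 libraries each: PIA+IL-27, PIA and Control. PIA stands for postnatal immune activation, as the title gives it, the design text names its agent as LPS (lipopolysaccharide, a component of the bacterial wall that activates innate immune cells), and PIA+IL-27 received recombinant IL-27, a cytokine of myeloid cells, in addition. The labels give the treatment only, with no strain, age, sex, dose or animal, and each library as a separate sample. The p-values rest on a spread between these samples that was shared across genes and all 6 libraries. Part of this spread may be technical.

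The table was selected on these libraries: in 1 or more of the authors' 3 comparisons each of the 3733 genes reaches a Q value of 0.05 with a log2 fold change of at least 1 in size. The 3733 genes held 641672 to 1593441 reads per library, out of an estimated 14622472 to 15863269 for the whole library. The libraries of a group differ among themselves. Replicates were more than 2-fold apart at 33.9% of all listed genes in PIA+IL-27, 34.6% in PIA and 71.8% in Control, with Control 2 the higher in 2201 of these 2682. Among the 39 genes described here the counts were 20 in PIA+IL-27, 18 in PIA and 25 in Control. Choroid plexus transcripts (12 of 12 markers listed) summed to 65689 normalized read counts in Control 2 and to 634 to 12769 in the other 5 libraries, where Kcne2, Otx2 and Tmem72 were at 0 in at least 1. PIA+IL-27 1 and PIA 2 held the most of Cux2, a transcript of upper neocortical layers (2370 and 2400 normalized read counts, 577 to 746 in the others), and the fewest transcripts of dentate granule cells, a defining cell type of hippocampus (2 of 6 listed; 189 and 103, 645 to 1419 in the others). Of CA1 markers 1 of 4 is in this selected table and of CA3 and CA2 markers 0 of 6. The sum over 4 Y-linked genes came to 1476 and 6.80 normalized read counts in PIA+IL-27, 541 and 594 in PIA, and 2.94 and 9.52 in Control. Y-linked transcripts were thus plentiful in both PIA libraries and near absent in both Control libraries. In PIA against Control, treatment and this difference between the samples cannot be told apart. The PIA+IL-27 libraries differed from each other in it (1476 and 6.80), so both comparisons with PIA+IL-27 were unbalanced for it as well. The part of this difference in the values was not tested in any comparison.

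G protein-coupled receptors pass a signal from outside the cell to a heterotrimeric G protein, whose alpha subunit and beta-gamma pair then act on enzymes and ion channels. Alpha subunits of the Gs and Gi classes raise or lower cyclic AMP through adenylyl cyclases, and those of the Gq class activate phospholipase C. RGS proteins speed the hydrolysis of GTP by the alpha subunit and so end the signal, and phosphodiesterases degrade the cyclic nucleotides. In hippocampus these proteins set how neurons answer to transmitters and neuropeptides, while microglia, vessels and blood leukocytes carry receptors of their own.

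Promoter sequences of RefSeq (build GRCm38.p6, 250 bases before to 50 after the start) were found for 26 of the 39 genes. Those of 3 genes are shown because their genes have the smallest p-values among those with more transcripts in PIA+IL-27 than in PIA (Gpr22, Rgs7bp and Rgs17), and the promoter of Gpr6 because it alone among the 26 holds the whole cyclic AMP response element. Capitals mark that element, TGACGTCA, or its short form TGACG, searched on both strands, with the short form also inside the whole element.
Gpr22, chr12:31713834-31714133, minus strand: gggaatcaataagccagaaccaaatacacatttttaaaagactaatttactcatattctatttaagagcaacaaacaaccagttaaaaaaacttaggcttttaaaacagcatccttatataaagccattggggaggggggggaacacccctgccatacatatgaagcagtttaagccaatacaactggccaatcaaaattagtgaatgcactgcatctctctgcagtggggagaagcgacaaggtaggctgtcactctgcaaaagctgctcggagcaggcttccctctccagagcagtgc
Rgs7bp, chr13:105054881-105055180, minus strand: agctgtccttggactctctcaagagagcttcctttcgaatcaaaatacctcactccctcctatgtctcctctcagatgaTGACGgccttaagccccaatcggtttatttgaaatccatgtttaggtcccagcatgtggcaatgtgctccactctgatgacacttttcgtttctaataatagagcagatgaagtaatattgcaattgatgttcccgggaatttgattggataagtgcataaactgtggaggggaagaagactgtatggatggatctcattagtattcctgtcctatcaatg
Rgs17, chr10:5922351-5922650, minus strand: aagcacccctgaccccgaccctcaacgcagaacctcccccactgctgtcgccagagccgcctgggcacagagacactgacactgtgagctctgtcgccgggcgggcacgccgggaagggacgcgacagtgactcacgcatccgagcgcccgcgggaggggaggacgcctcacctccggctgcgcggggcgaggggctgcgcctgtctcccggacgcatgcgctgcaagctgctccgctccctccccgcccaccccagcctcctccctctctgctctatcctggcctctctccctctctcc
Gpr6, chr10:41072241-41072540, minus strand: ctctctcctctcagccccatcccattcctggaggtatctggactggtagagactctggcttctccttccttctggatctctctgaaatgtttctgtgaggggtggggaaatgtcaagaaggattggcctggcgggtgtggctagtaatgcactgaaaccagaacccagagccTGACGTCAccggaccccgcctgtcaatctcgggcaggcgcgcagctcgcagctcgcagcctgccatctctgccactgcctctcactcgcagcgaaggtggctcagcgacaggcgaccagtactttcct
The first 3 genes share the direction of their values in the table but not the make-up of their promoters, whose GC content was 43.0% for Gpr22, 42.7% for Rgs7bp and 71.0% for Rgs17. The 26 genes have 32 promoters in the table. The short form was found in 7 of the 32 (21.9%) and in 20.8% of all 32851 promoters of this length. The whole element was found in 1 of the 32 (3.12%) and in 1.79% of all. The interferon-stimulated response element (ISRE), also searched, was found in 1 of the 32 (3.12%, Gpr18) and in 3.44% of all. The PU.1 motif of myeloid cells (GAGGAAGT) was found in Adgre4, Gpr31b and Gpr55, in 3 of the 32 promoters (9.38%) and in 3.20% of all.

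In PIA+IL-27 against PIA, 20 of the 30 genes with enough reads to be tested had a positive log2 fold change and 10 a negative one, with a median of 1.002. Over all 3216 tested genes the median was 1.17, and 74.8% were positive. No gene of the group passed in edgeR's quasi-likelihood test at an adjusted p of 0.05 (0.435% of all genes tested did). At an unadjusted p under 0.05 there were 6 of 30, where 18.7% of all genes reached it, and DESeq2 and limma called 0 as well. DESeq2 gave no adjusted p here for genes that include Gpr31b, Gpr34, Gpr84, Gpr182 and Adgrg3, and so could not call them. Fitted on the 4 libraries of this comparison alone, edgeR called 449 genes, with Gpr22, Rgs17 and Rgs7bp among them at an adjusted p of 0.0493 each. These are 10.3% of the 29 members in that fit, beside 14.9% of all 3006 genes. With TMM scaling over the listed genes, which moved the median of all genes to -0.03, 11 of 31 were positive and 20 negative. In the authors' deposited table, 18 of the 39 are listed as higher (61.4% of all genes) and 8 as lower (18.2% of all genes).

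Where PIA+IL-27 and PIA did not overlap, PIA+IL-27 was the higher in 17 of the 39 (43.6%, beside 57.1% of all genes) and the lower in 7 (17.9%, beside 16.5% of all genes). With TMM scaling these counts were 7 (17.9%, beside 22.9% of all genes) and 12 (30.8%, beside 27.5% of all genes). The 17 include Gnaq, all 3 tested phosphodiesterases, both RGS-binding proteins and the RGS genes Rgs5, Rgs13, Rgs17 and Rgs22. The 7 are Adgre1, Adgrg3, Gpr31b, Gpr84, Gpr182, Gnat1 and Pde4c, of which the first 4 are known mainly from leukocytes.

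**Figure D1:**
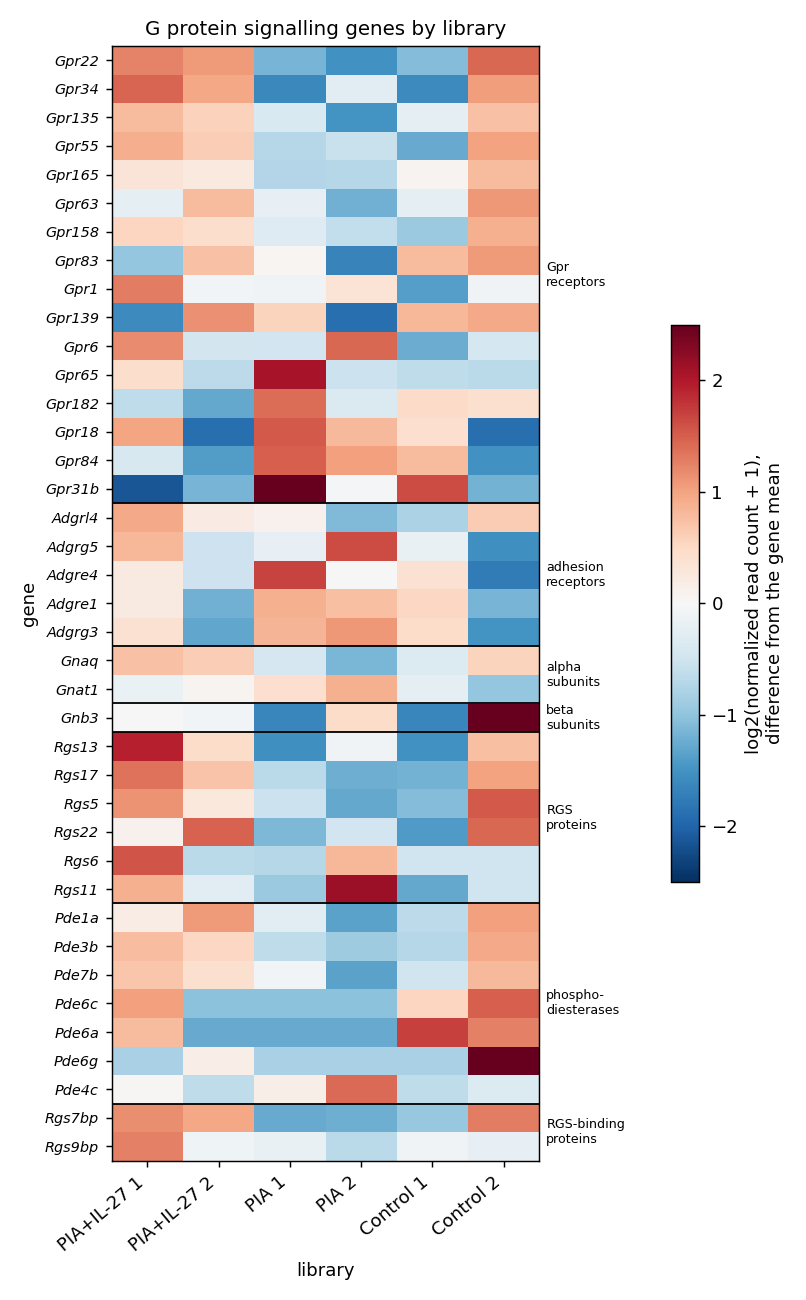
Heat map of the 39 genes (rows, by role) in the 6 libraries (columns). Colour is log2 of the normalized read count plus 1, as the difference from the gene's mean over libraries. Genes such as Gpr22, Rgs17 and Rgs7bp are high in both PIA+IL-27 libraries and in Control 2 and low in both PIA libraries and in Control 1, while Rgs6, Rgs11 and Gpr6 are high in PIA+IL-27 1 and PIA 2.

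In PIA against Control, 11 of the 30 tested genes were positive and 19 negative, with a median log2 fold change of -0.90 beside -0.68 over all genes tested. Again 0 passed in edgeR (0.218% of all genes tested did), 0 in DESeq2 and 0 in limma, and 3 of 30 had an unadjusted p under 0.05 (6.28% of all). The authors' table lists 11 of the 39 as higher (18.0% of all genes) and 17 as lower (34.4% of all genes). Where PIA and Control did not overlap, PIA was the higher in 8 (17.2% of all genes) and the lower in 9 (16.5% of all genes). The direction rests on Control 2: without this library the median of the group was 0.44 (34 genes tested), and without Control 1 it was -1.32 (36 genes tested). Of the 2682 genes of the whole table that lay over 2-fold apart between the Control libraries, Control 2 was the higher in 2201. With TMM scaling the median of the group was -0.12, with 15 positive and 16 negative, beside -0.0006 over all genes. This comparison and that of PIA+IL-27 with PIA share the PIA libraries, so their values are given side by side and are not independent of each other.

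In PIA+IL-27 against Control the median of the 30 was 0.32, with 21 positive and 9 negative, beside a median of 0.55 over all genes. Here too 0 passed in edgeR (0.311% of all genes tested did), 0 in DESeq2 and 0 in limma, with 1 of 30 at an unadjusted p under 0.05 (2.86% of all). The groups did not overlap in 4 genes that were higher (23.0% of all genes), namely Gpr1, Rgs11, Gnaq and Gnat1, and in 3 that were lower (7.5% of all genes), namely Gpr182, Gpr83 and Pde6a. The authors' table lists 6 as higher (13.3% of all genes) and 4 as lower (8.57% of all genes).

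**Figure D2:**
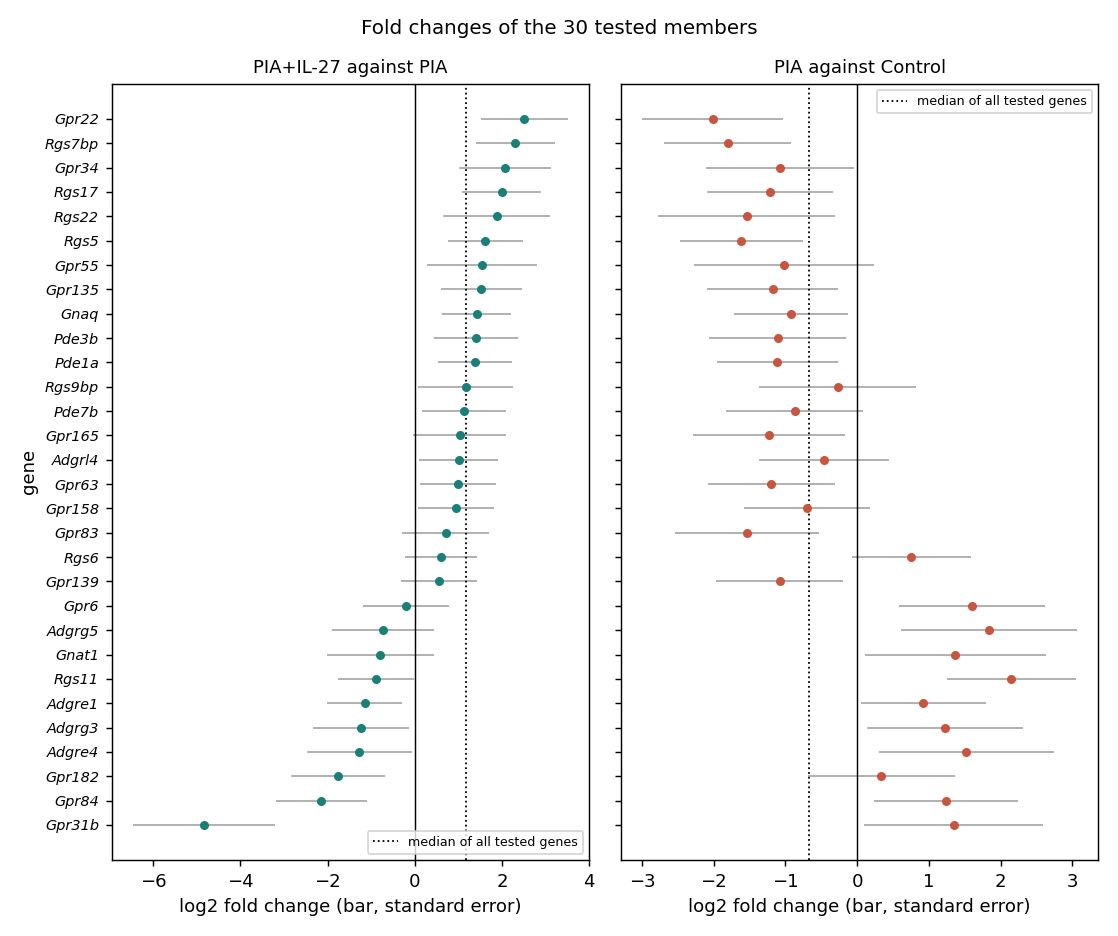
Log2 fold changes (points) with standard errors (bars) of the 30 tested genes in PIA+IL-27 against PIA (left) and PIA against Control (right), which share the PIA libraries. The dotted line is the median of all tested genes, 1.17 on the left and -0.68 on the right. The genes span -4.83 (Gpr31b) to 2.51 (Gpr22) on the left and -2.01 (Gpr22) to 2.15 (Rgs11) on the right.

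Among the receptors of neurons, Gpr22, an orphan receptor of brain and heart, had 197 and 175 normalized read counts in PIA+IL-27, 36.5 and 28.4 in PIA, and 38.2 and 225 in Control. Both PIA+IL-27 libraries and Control 2 thus lay far above the other 3, and the PIA libraries lay just below Control 1. The log2 fold change was 2.51 ± 0.996 in PIA+IL-27 against PIA (SE, n = 2 per group; adjusted p = 0.257, edgeR) and -2.01 ± 0.98 in PIA against Control (adjusted p = 0.617). Gpr135, also an orphan receptor, had 276 and 237 in PIA+IL-27, 122 and 55.6 in PIA, and 136 and 266 in Control. Its groups did not overlap in either comparison (1.53 ± 0.92, adjusted p = 0.288, against PIA; -1.18 ± 0.92, adjusted p = 0.617, in PIA against Control), but its expected counts were not whole in any library, as is so where a counter divides reads among genes, which leaves its values uncertain. Gpr158, a class C receptor that recruits RGS proteins to the membrane, had 372 and 351 normalized read counts in PIA+IL-27, 207 and 168 in PIA, and 134 and 475 in Control. Its Control libraries lay on either side of all others. Gpr165, an orphan receptor, had 38.6 and 36.9 in PIA+IL-27, 18.3 and 18.5 in PIA, and 32.3 and 54.3 in Control, with both PIA libraries the lowest. Gpr63, a receptor of brain, had 215 and 443 in PIA+IL-27, 219 and 110.2 in PIA, and 218 and 537 in Control, and no pair of its groups was apart.

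Other neuronal receptors stood apart in PIA+IL-27 1 and PIA 2, the libraries with most Cux2. Gpr139, an orphan receptor best known from the habenula, had 68.8 and 466 normalized read counts in PIA+IL-27, 309 and 55.6 in PIA, and 371 and 403 in Control. Gpr83, a receptor of a neuropeptide, had 21.9 and 73.8 in PIA+IL-27, 45.2 and 13.1 in PIA, and 76.4 and 93.3 in Control (-1.53 ± 1.01, adjusted p = 0.617, in PIA against Control; edgeR). Both were lowest in the 2 libraries in which dentate markers were lowest. Gpr6, which signals through Gs without a ligand and is abundant in striatum, had 99.1 and 31.1 normalized read counts in PIA+IL-27, 30.7 and 119 in PIA, and 17.6 and 31.4 in Control, and was highest in the same 2 libraries. Its log2 fold change was 1.60 ± 1.01 in PIA against Control (adjusted p = 0.617, edgeR) and 1.40 ± 1.01 in PIA+IL-27 against Control (adjusted p = 0.835). Striatal markers (5 of 10 listed) together had 2377 and 2015 normalized read counts in PIA+IL-27, 1166 and 1005 in PIA, and 1168 and 2498 in Control, with Control 2 the highest. Most of this sum was Foxp1 (2208 and 1749 in PIA+IL-27, 948 and 699 in PIA, 957 and 1691 in Control). The others listed, Adora2a, Tac1, Six3 and Isl1, were each highest in Control 2 and had 98.0, 69.9, 1.04 and 0 in PIA+IL-27 1. The part that the tissue sampled plays in these values was not tested.

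Receptors of myeloid cells did not share a pattern. Gpr84, a receptor of medium-chain fatty acids that endotoxin induces in macrophages and microglia, had 28.2 and 13.6 normalized read counts in PIA+IL-27, 108 and 77.5 in PIA, and 65.6 and 12.4 in Control. Both PIA libraries lay above every other library. The log2 fold change was -2.14 ± 1.04 in PIA+IL-27 against PIA (adjusted p = 0.258, edgeR) and 1.25 ± 1.004 in PIA against Control (adjusted p = 0.617). Gpr34, a lysophosphatidylserine receptor of resting microglia, had 95.9 and 68.0 in PIA+IL-27, 10.6 and 28.4 in PIA, and 10.8 and 71.4 in Control. Both PIA+IL-27 libraries lay above both PIA libraries, opposite to Gpr84 (2.07 ± 1.05, adjusted p = 0.264). In PIA against Control its log2 fold change was -1.08 ± 1.03 (adjusted p = 0.617), and 0.84 without Control 2. Of the 8 microglial markers 3 are listed, and they together had 944 and 590.3 normalized read counts in PIA+IL-27, 642 and 1587 in PIA, and 725 and 607 in Control, most of it from C1qa (627 and 355 in PIA+IL-27, 623 and 1501 in PIA, 702 and 317 in Control). The other 2 had the pattern of Gpr34: P2ry12 had 258 and 184 in PIA+IL-27, 9.61 and 56.7 in PIA, and 14.7 and 232 in Control, and Siglech had 59.4 and 50.5 in PIA+IL-27, 9.61 and 29.5 in PIA, and 7.84 and 57.1 in Control. The part of microglial content in these values was not tested. In bulk tissue fewer cells of a type and less RNA per cell cannot be told apart.

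The other leukocyte receptors had few reads. Gpr31b, whose human counterpart is a receptor of hydroxylated fatty acids, had 0 and 0.971 normalized read counts in PIA+IL-27, 31.7 and 3.27 in PIA, and 12.7 and 0.952 in Control. Its log2 fold change was the lowest of the group in PIA+IL-27 against PIA (-4.83 ± 1.63, adjusted p = 0.203, edgeR), and without PIA 1 it was -2.45. The fitted value depends on the prior count, since PIA+IL-27 held 1 read against 36 in PIA, a ratio of 0.0273 with an exact 95% interval of 0.00067 to 0.162 that covers counting error only. Against the 14 reads in Control the ratio was 0.0744 (0.0018 to 0.489). Gpr65, a proton-sensing receptor, had 18.3 in PIA 1 and 1.90 to 5.21 in the other libraries, and Gpr18, a receptor of lymphoid cells, had 0 to 9.61. Gpr55, a receptor of lysophosphatidylinositol, had 16.7 and 13.6 in PIA+IL-27, 4.80 and 5.46 in PIA, and 2.94 and 18.1 in Control, and like Gpr34 was higher in both PIA+IL-27 libraries than in either PIA library. Gpr31b, Gpr65 and Gpr18 were highest in PIA 1, as were Adgre1, Adgre4 and Gpr84. Adgrg3 and Adgrg5, also of leukocytes, were highest in PIA 2 (44.7 and 33.8, beside 37.5 and 8.65 in PIA 1), and Gpr55 in Control 2. The 7 listed of 8 markers of neutrophils and monocytes were each highest in PIA 1. These markers summed to 243 and 98.1 in PIA+IL-27, 2057 and 382 in PIA, and 692 and 87.6 in Control. Their part in the result was not tested. Gpr182, a scavenger of chemokines on endothelium, had 18.8 and 11.7 normalized read counts in PIA+IL-27, 80.7 and 22.9 in PIA, and 42.1 and 39.99 in Control (-1.76 ± 1.07, adjusted p = 0.290, in PIA+IL-27 against PIA, and -1.43 ± 1.07, adjusted p = 0.835, against Control). Both PIA+IL-27 libraries were below all the rest, which held for no other gene of the 39.

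Of the 5 adhesion receptors, which join a long extracellular region to the receptor, 4 belong to leukocytes and 1 to endothelium. Adgre1, the macrophage antigen F4/80, had 367 and 136 normalized read counts in PIA+IL-27, 588 and 530.2 in PIA, and 449.6 and 140.0 in Control. Both PIA libraries lay above all others, while the replicates of PIA+IL-27 and of Control were each more than 2-fold apart (-1.15 ± 0.87, adjusted p = 0.329, in PIA+IL-27 against PIA; 0.92 ± 0.87, adjusted p = 0.617, in PIA against Control; edgeR). Adgrg3, found on granulocytes, had 27.1 and 7.77 in PIA+IL-27, 37.5 and 44.7 in PIA, and 28.4 and 6.67 in Control. Adgre4, of macrophages, and Adgrg5, of leukocytes, had at most 33.8 normalized read counts, and their groups overlapped in all 3 comparisons. In PIA against Control their log2 fold changes were 1.52 ± 1.22 and 1.84 ± 1.22 (adjusted p = 0.617 for both, edgeR). Control 2 had the lowest value of Adgre4, Adgrg3 and Adgrg5, and only PIA+IL-27 2 was lower for Adgre1. Adgrl4, an endothelial receptor of vessel growth, had 338 and 200.01 normalized read counts in PIA+IL-27, 186 and 80.7 in PIA, and 99.9 and 269 in Control. Its value of 1.01 ± 0.91 in PIA+IL-27 against PIA (adjusted p = 0.354) turned to -0.17 with TMM scaling and to -0.31 with GC and length trends removed. Ly6c1, the 1 listed of 6 endothelial markers, had 91.8 and 228 in PIA+IL-27, 483 and 184 in PIA, and 280.1 and 173 in Control.

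The alpha subunit Gnaq, which couples receptors to phospholipase C, was the most abundant gene of the group in all libraries but PIA 2. It had 65.7 and 62.6 TPM (a level per length, scaled to the sum of all transcripts) in PIA+IL-27, 27.6 and 16.1 in PIA, and 28.7 and 63.3 in Control. In normalized read counts these were 4026 and 3728, 1808 and 1095, and 1913 and 3587. In normalized read counts both PIA+IL-27 libraries lay above all others, as in no other gene of the 39, though Control 2 was level with them in TPM, and both PIA libraries lay below all others. The log2 fold change was 1.42 ± 0.80 in PIA+IL-27 against PIA (adjusted p = 0.276, edgeR) and -0.92 ± 0.79 in PIA against Control (adjusted p = 0.617). Gnaq had 0.50 ± 0.79 in PIA+IL-27 against Control (adjusted p = 0.835), and -0.14 with TMM scaling. Genes of the photoreceptor G protein pathway had few reads: Gnat1, the alpha subunit of rods, had 3.81 to 16.4 normalized read counts, and Gnb3, a beta subunit of cones, had 21.9 in Control 2 and 0 to 3.27 elsewhere.

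RGS proteins held some of the most abundant members. Rgs5, the marker of pericytes, had 35.9 and 23.4 TPM in PIA+IL-27, 16.2 and 7.42 in PIA, and 9.73 and 50.2 in Control. The 2 Control libraries were the lowest but 1 and the highest of all, so that the log2 fold change in PIA against Control was -1.62 ± 0.86 (adjusted p = 0.617, edgeR), but 0.22 without Control 2. It was 1.62 ± 0.86 in PIA+IL-27 against PIA (adjusted p = 0.265), where the groups did not overlap, and 0.00 ± 0.84 in PIA+IL-27 against Control (adjusted p = 0.999). The 2 listed of 6 markers of pericytes and smooth muscle together had 343 and 217 normalized read counts in PIA+IL-27, 426 and 273 in PIA, and 304 and 463 in Control, but they ran opposite ways. Abcc9, of pericytes, had 193 and 134 in PIA+IL-27, 88.4 and 36.0 in PIA, and 65.6 and 248 in Control, and lay higher in PIA+IL-27 than in PIA as Rgs5 did. Acta2, of smooth muscle, had 150.2 and 82.5 in PIA+IL-27, 337 and 237 in PIA, and 238 and 215 in Control. Their part in the values of Rgs5 was not tested. Rgs17, which acts on Gi-class subunits and Gz, had 581 and 369.9 normalized read counts in PIA+IL-27, 142 and 96.0 in PIA, and 98.9 and 455 in Control. The log2 fold change was 1.995 ± 0.902 in PIA+IL-27 against PIA (adjusted p = 0.257) and -1.22 ± 0.88 in PIA against Control (adjusted p = 0.617), the second of which was 0.27 without Control 2.

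**Figure D3:**
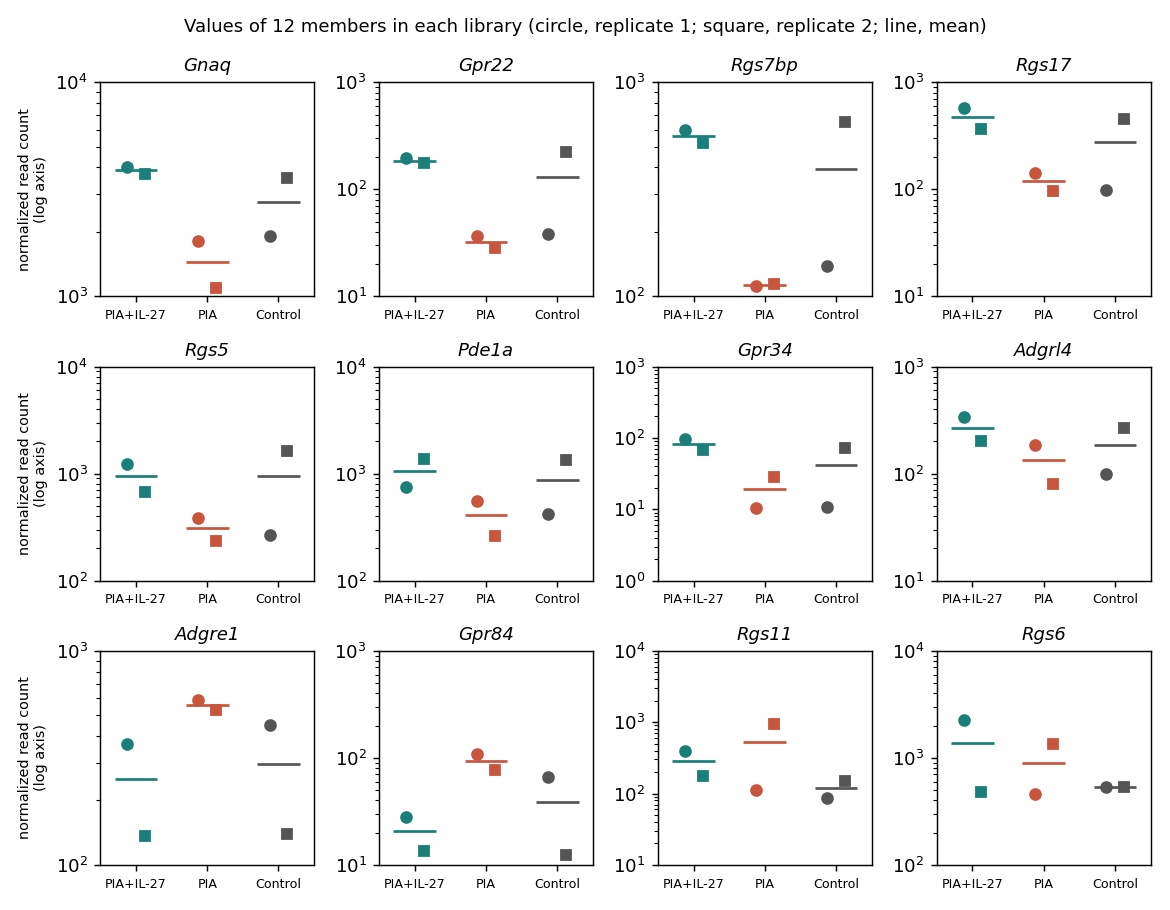
Normalized read counts (log axis) of 12 genes in PIA+IL-27, PIA and Control; circles are replicate 1, squares replicate 2 and lines the group mean. The Control replicates lie apart in most panels, as for Gpr22 (38.2 and 225), and PIA 2 and PIA+IL-27 1 stand out for Rgs6 (1341 and 2252) and Rgs11 (943 and 396).

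Rgs6 and Rgs11, which belong to the R7 subfamily and pair with the beta subunit Gb5, had another pattern. Rgs11 had 396 and 175 normalized read counts in PIA+IL-27, 111 and 943 in PIA, and 87.2 and 150.4 in Control. Rgs6 had 2252 and 478 in PIA+IL-27, 460.3 and 1341 in PIA, and 533 and 534 in Control. Both were highest in PIA 2 and PIA+IL-27 1, together with the neocortical marker Cux2 (2370 and 584 in PIA+IL-27, 664 and 2400 in PIA, 746 and 577 in Control). Rspo1, of the same marker list, was not: it had 11.5 and 22.3 in PIA+IL-27, 50.9 and 44.7 in PIA, and 61.7 and 17.1 in Control. Rgs11 had the smallest p of the group in PIA against Control (2.15 ± 0.90, adjusted p = 0.617, edgeR), and without PIA 2 its value was -0.09. Against Control, PIA+IL-27 had 1.26 ± 0.88 for Rgs11 (adjusted p = 0.835), where the groups did not overlap. Rgs6 had 1.36 ± 0.84 in PIA+IL-27 against Control (adjusted p = 0.835), and -0.16 without PIA+IL-27 1. Rgs7bp, the membrane anchor of R7 proteins, did not share their pattern. It had 597 and 521 normalized read counts in PIA+IL-27, 111 and 115 in PIA, and 138 and 653 in Control. Its log2 fold change was 2.31 ± 0.90 in PIA+IL-27 against PIA (adjusted p = 0.257) and -1.81 ± 0.89 in PIA against Control (adjusted p = 0.617). Rgs9bp, the anchor of Rgs9 in photoreceptors, had 56.3 in PIA+IL-27 1 and 14.2 to 21.5 in the other libraries. Rgs22 had 10.4 and 28.2 in PIA+IL-27, 3.84 and 6.55 in PIA, and 2.94 and 27.6 in Control, and Rgs13 had at most 20.9.

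Of the 7 phosphodiesterases, 3 had enough reads to be tested, and all 3 lay higher in both PIA+IL-27 libraries than in either PIA library. Pde1a, which calcium and calmodulin activate, had 751 and 1378 normalized read counts in PIA+IL-27, 552 and 261 in PIA, and 421 and 1339.7 in Control. The log2 fold change was 1.39 ± 0.85 in PIA+IL-27 against PIA (adjusted p = 0.290, edgeR) and -1.11 ± 0.85 in PIA against Control (adjusted p = 0.617). Pde3b, which cGMP inhibits, had 173 and 146 in PIA+IL-27, 65.3 and 54.6 in PIA, and 61.7 and 197 in Control. Pde7b, specific for cAMP, had 122 and 100.005 in PIA+IL-27, 72.1 and 29.5 in PIA, and 52.9 and 133 in Control. Control 2 lay close to or above the higher PIA+IL-27 library in all 3, and Control 1 lay among the PIA values. Pde4c, also specific for cAMP, had 5.21 and 2.91 in PIA+IL-27, 5.77 and 15.3 in PIA, and 2.94 and 3.81 in Control.

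The photoreceptor enzymes Pde6a, Pde6c and Pde6g had 0 reads in both PIA libraries. With the PIA group set to 3 counts in all in place of 0, PIA was 3.78-fold lower than Control for Pde6a, 2.21-fold for Pde6c and 4.41-fold for Pde6g. These values are not lower bounds, since they take the Control counts as observed, without counting error. They rest on 12, 7 and 14 reads in Control, all 14 of them in Control 2 for Pde6g. The expected counts of Pde6a were not whole in any of the 3 libraries that held reads, which leaves its values uncertain as for Gpr135. Control 2 is the library with most choroid plexus transcripts, and their part in this value was not tested.

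Levels spread over a wide range. Mean TPM over the 6 libraries was at least 10 for 6 genes, in the order Gnaq (44.0), Rgs5 (23.8), Pde1a (23.0), Rgs6 (17.7), Rgs11 (13.2) and Adgre1 (13.0), and under 1 for 15. Rgs5 and Pde1a, and likewise Rgs11 and Adgre1, differed by far less than each varied between libraries. The 9 genes that were not tested for want of reads were Gpr1, the chemerin receptor (0.979 to 11.5 normalized read counts), Gpr18, Gpr65, Rgs13, Gnb3, Pde4c, Pde6a, Pde6c and Pde6g.

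In 2 of the 3 comparisons the fold changes of the group varied with the GC content of the transcripts. Across the 30 tested genes, the log2 fold change in PIA+IL-27 against PIA had a Spearman correlation of -0.66 with the GC content of the longest coding transcript, and -0.64 across 3110 tested genes. Genes are not independent replicates, and they share the same libraries. The 20 positive genes had 35.4 to 50.4% GC (median 44.0%), and the 10 negative ones 39.2 to 56.6% (median 54.1%), the lowest of these being Adgre4 (39.2%) and Adgre1 (47.2%). The log2 ratio of Control 2 to Control 1, libraries of 1 group, had a Spearman correlation of -0.61 with GC in the same 30 genes and -0.55 across the 3110. For PIA against Control, the Spearman correlation was 0.69 in the 30 and 0.38 across the 3110. For PIA+IL-27 against Control it was 0.03 in the 30, beside -0.46 across the 3110.

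**Figure D4:**
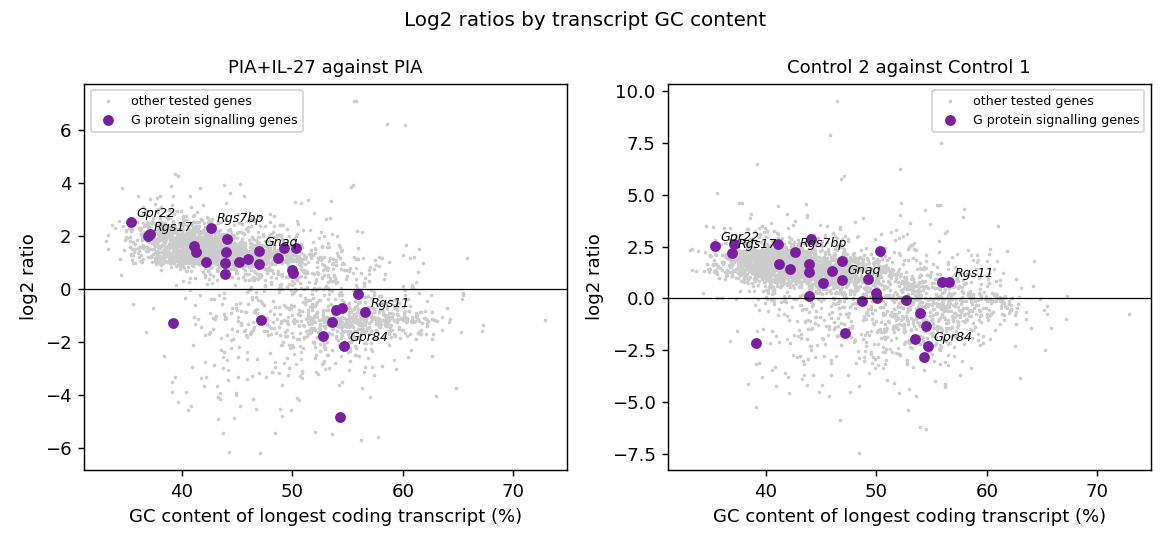
Log2 ratio of PIA+IL-27 to PIA (left) and of Control 2 to Control 1 (right) against the GC content of the longest coding transcript in percent, for the G protein signalling genes (purple) and the other tested genes (grey). The purple points follow the grey ones in both panels, with a Spearman correlation of -0.66 on the left and -0.61 on the right.

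After the trends of each library with GC content and with length were taken out by loess, the median of the 30 genes was 0.11 in PIA+IL-27 against PIA and -0.06 in PIA against Control. Gpr22 then had 0.62 ± 0.39 in PIA+IL-27 against PIA (adjusted p = 0.642, edgeR), Rgs17 0.17 ± 0.24 (adjusted p = 0.832), Rgs5 0.16 ± 0.41 (adjusted p = 0.914), Gnaq 0.37 ± 0.25 (adjusted p = 0.666), Gpr34 0.47 ± 0.68 (adjusted p = 0.832) and Pde1a 0.01 ± 0.42 (adjusted p = 0.994). Each of these lay closer to 0 than the value without the correction. Rgs7bp had 0.82 ± 0.30 (adjusted p = 0.611) and Gpr135 1.35 ± 0.38 (adjusted p = 0.611), the 2 genes of the group with an unadjusted p under 0.05 in this fit (6.67%, beside 6.75% of all genes). On the other side, Adgre1 had -1.82 ± 0.85 (adjusted p = 0.611), farther from 0 than the -1.15 without the correction, and Gpr84 had -1.10 ± 0.72 (adjusted p = 0.666).

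Few other genes of the pathway are in the table. Of 46 genes of cAMP and G protein effectors, 14 are listed and tested: 0 passed in either direction in any comparison. Against PIA, 12 of the 14 in PIA+IL-27 were positive, with a median log2 fold change of 1.59 beside 1.17 over all genes. In PIA against Control 12 were negative, with a median of -0.87 beside -0.68. Plcb1, the phospholipase C that Gnaq activates, had 1713 and 705 normalized read counts in PIA+IL-27, 305 and 302 in PIA, and 244 and 867 in Control. Creb1, the transcription factor that protein kinase A activates, had 512 and 392 in PIA+IL-27, 187 and 110.2 in PIA, and 135 and 427 in Control. As for Gpr22 and Rgs17, both PIA+IL-27 libraries and Control 2 were high. The 2 that were negative in PIA+IL-27 against PIA were Arhgef1, a guanine nucleotide exchange factor, and Itpr3, a calcium channel of the endoplasmic reticulum. Of 18 genes of desensitisation and G protein regulation 3 are listed (Grk4, Gprin3 and Gpsm3), and of 14 cAMP-induced early genes 2 (Bdnf and Ppargc1a), and 0 of either list passed. Gpsm3, a G protein regulator of leukocytes, had 49.0 and 35.0 in PIA+IL-27, 94.2 and 106 in PIA, and 62.7 and 34.3 in Control, and so was ordered like Adgre1 and Gpr84.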

How the data were processed

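RNA of 6 hippocampal libraries was sequenced by BGI Genomics, per the labels. Per the file headers, the authors deposited, for each gene in each library, expected counts (11.3 to 13.3% of them not whole), FPKM, TPM and a normalized read count. The last, a signal, is the authors' count after rounding up, over a factor of its library (0.917 to 1.05; all values within 1e-06). Per comparison the authors gave a log2 fold change and a Q value (an adjusted p-value), per the file headers. No source used here gives the aligner, counter, strand setting, genome build or test.

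Depth was estimated from counts, FPKM and lengths of 27 single-transcript genes (FPKM at least 3, length at least 2000 bases). For the quasi-likelihood test of edgeR 4.0.16 (R 4.3.3) the expected counts were first rounded, and all 6 libraries entered 1 fit. Scaling used the authors' factors because the table was selected, filterByExpr kept 3216 genes, adjustment was by Benjamini-Hochberg and the threshold 0.05. Each standard error is the fold change divided by the root of F. The biological coefficient of variation was 0.597. The prior degrees of freedom were infinite, so standard errors and p-values rest on a spread shared across genes and all 6 libraries. They do not measure the spread of a gene within the compared groups alone. Alternatives were factors from TMM or from the median of ratios, a fit without the filter, a replicate block, GC and length trends removed (loess span 0.5, GENCODE M21 transcripts, 95.7% of genes and all 39 members), a fit on the compared libraries only, each library left out, DESeq2 1.42.0, limma 3.58.1 on log2 TPM plus 1 or 0.1, and a robust spread. Members, lists and markers were chosen with earlier results of these data known. Genes named with fold changes were, per comparison, the 5 smallest p-values in each direction, the most abundant tested gene per class, and 7 genes in every comparison (Rgs5, Gpr34, Gpr84, Adgre1, Adgrl4, Gnaq and Pde1a). All 39 members matched a RefSeq gene by identifier and symbol. Lists were described by counts and medians, without a test. The summed list of neocortical markers is not reported here, and Cux2 was chosen from it after its values were seen.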

Additional observations from a re-analysis of the deposited data

How the results depend on the processing

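No gene of the group was called under any setting but the fit on the 4 compared libraries, with 3 in PIA+IL-27 against PIA. The median of PIA against Control was -0.12 with TMM, -0.11 with median-of-ratios factors, -0.055 with GC and length trends removed and -0.070 with a replicate block as well. That of PIA+IL-27 against PIA was -0.18, -0.15, 0.11 and 0.12 in the same order, and 0.48 in limma on log2(TPM + 1), where TPM is the authors'. That of PIA+IL-27 against Control was -0.21 with TMM and -0.18 with median-of-ratios factors. Genes without overlap under TMM numbered 7 higher and 12 lower in PIA+IL-27 against PIA (22.9 and 27.5% of all genes), and 2 and 8 in PIA+IL-27 against Control (15.5 and 16.2% of all genes). The causes were not tested. With a replicate block alone the medians were -0.85 (PIA against Control), 0.98 (PIA+IL-27 against PIA) and 0.44 (PIA+IL-27 against Control). Deviations of same-numbered libraries had correlations across genes of 0.147 (PIA and Control), 0.0602 (PIA+IL-27 and Control) and -0.26 (PIA+IL-27 and PIA). These rest on 1 replicate difference per group and cannot decide whether same-numbered libraries share more than a number. In the fit on all 6 libraries no gene of the group was called with or without the block.

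Single genes changed sign as follows, in the order TMM, median-of-ratios, GC and length, and block with GC and length. Adgrl4 had 0.15, 0.15, 0.21 and 0.15 in PIA against Control and -0.17, -0.13, -0.31 and -0.30 in PIA+IL-27 against PIA. In PIA+IL-27 against Control, Rgs5 had -0.36, -0.31, -0.45 and -0.44, and Pde1a -0.16, -0.15, -0.32 and -0.35. In that comparison Adgrl4 had -0.019 with TMM, -0.11 with GC and length, and -0.15 with the block as well, Gnaq had -0.14 and Gpr135 -0.28 with TMM, and -0.12 and -0.26 with median-of-ratios factors, and Rgs7bp had -0.0027 with GC and length. Pde1a had -0.039 in PIA+IL-27 against PIA with the block, GC and length.

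With each library left out, the medians spanned -1.32 to 0.44 (PIA against Control), 0.94 to 1.45 (PIA+IL-27 against PIA) and -0.024 to 1.04 (PIA+IL-27 against Control). Counts without overlap spanned 11 to 13 higher and 10 to 23 lower, 20 to 22 higher and 7 to 11 lower, and 7 to 21 higher and 6 to 15 lower, in that order of comparisons; with 1 library in an arm fewer values must separate. In PIA against Control, Adgrl4 spanned -1.19 to 0.42, Gpr34 -1.95 to 0.84, Rgs11 -0.092 to 2.99, Rgs17 -1.93 to 0.27 and Rgs5 -2.40 to 0.22. In PIA+IL-27 against Control, Adgre1 spanned -1.12 to 0.84, Gpr135 -0.051 to 0.91, Gpr139 -2.49 to 0.27, Gpr84 -1.65 to 0.75, Pde1a -0.33 to 1.34, Rgs5 -0.78 to 1.84, Rgs6 -0.16 to 2.08 and Rgs7bp -0.22 to 2.02. A lone library is assumed to vary like the other groups. The TMM and left-out counts without overlap and the robust spread were chosen after seeing the data. With 2 libraries a group, differences smaller than the spread between replicates were not detectable.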
